A study of Drosophila melanogaster with 2 samples.

Results

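The genes described here are the 33 protein-coding genes of *Drosophila melanogaster* whose annotated name is that of an aminoacyl-tRNA synthetase (1 or 2 amino acid abbreviations followed by RS, with or without the suffix -m), out of 13945 protein-coding genes on the autosome arms, chromosome 4 and X. Membership follows from the name alone, though the family was picked with earlier results of these data known. The data are ChIP-seq peaks of the homeodomain transcription factor Bsh, from 2 biological replicates of 1 group. Its samples were whole embryos, 10 to 12 h old, of a transgenic line that stably carries bsh fused at its C-terminal end to GFP, and the DNA bound was precipitated with an antibody against GFP. There was no second condition, no control sample was analysed here, and no read counts were used, so the depth is unknown and no p-value is given. Whole embryos mix all cell types, and binding in more cells cannot be told apart from stronger binding per cell.

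Each aminoacyl-tRNA synthetase couples 1 kind of amino acid to its tRNAs, the step that sets the meaning of a codon during translation. The enzymes fall into class I and class II, which differ in the fold of their catalytic domain. Animals encode most of their mitochondrial synthetases by separate nuclear genes, which in the fly carry the suffix -m. The genes are needed in every growing cell and are regarded as housekeeping genes. Bsh, by contrast, is known for specifying neurons of the optic lobe. The list holds 18 genes without the suffix, among them GluProRS, whose single protein charges both glutamate and proline tRNAs, and 15 genes with it.

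The following sequences show the DNA under 6 of the 13 summits found near synthetase starts, all of them upstream of the gene. They are the strongest whose windows could be printed, and stand 1st, 3rd, 4th, 6th, 7th and 11th by signal. Each runs from 50 bases before the summit to 50 after it, on assembly dm6 and in the direction of the gene. Capitals mark the motifs found among 10 searched. The windows are chr3L:22288446-22288546 for IleRS (plus strand), chr3R:23958473-23958573 for GluProRS (minus strand) and chr2L:12103480-12103580 for ThrRS (plus strand). For SerRS-m the window is chr3R:15340161-15340261 (plus strand), for AsnRS chr2L:19131998-19132098 (minus strand) and for GlyRS chr3L:15094860-15094960 (plus strand). All of these windows were intergenic at the summit except that of SerRS-m, which lay in an intron of Nagk.
IleRS: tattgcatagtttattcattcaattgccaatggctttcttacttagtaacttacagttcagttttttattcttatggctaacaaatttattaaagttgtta
GluProRS: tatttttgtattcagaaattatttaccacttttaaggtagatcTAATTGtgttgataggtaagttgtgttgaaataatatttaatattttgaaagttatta
ThrRS: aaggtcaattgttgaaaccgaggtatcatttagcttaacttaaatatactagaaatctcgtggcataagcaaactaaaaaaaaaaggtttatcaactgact
SerRS-m: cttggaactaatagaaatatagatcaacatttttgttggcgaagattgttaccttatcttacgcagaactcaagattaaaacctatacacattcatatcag
AsnRS: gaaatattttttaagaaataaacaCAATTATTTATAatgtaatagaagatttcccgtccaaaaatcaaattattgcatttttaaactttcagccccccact
GlyRS: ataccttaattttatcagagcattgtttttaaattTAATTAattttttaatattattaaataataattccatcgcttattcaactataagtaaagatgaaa
GluProRS and AsnRS hold the homeodomain core TAATTG (in AsnRS on the other strand, as CAATTA, followed by TTTATA, the TATA motif TATAAA on the other strand), and GlyRS holds the core TAATTA. IleRS, ThrRS and SerRS-m hold none of the 10 motifs in this window. The GC content of these stretches ran between 16.8% in GlyRS and 31.7% in SerRS-m.

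In the IDR peak set, 13 of the 33 synthetase genes (39.4%) had a summit no more than 500 bp from an own transcription start site (TSS), against 23.5% of all protein-coding genes. This set is the authors' list thresholded by irreproducible discovery rate (IDR), a measure that favours peaks ranked alike in both replicates. It holds 7927 peaks, the same as the 7927 strongest of the list called on the pooled replicates. A place in it thus follows the pooled signal value, and does not show that the peak ranked alike in both replicates. The genes, in order of the signal value that the authors' peak caller gave, were IleRS, SerRS, GluProRS, ThrRS, CysRS-m, SerRS-m, AsnRS, ValRS, MetRS, AlaRS, GlyRS, ArgRS-m and ArgRS. From 2 kb before each gene to 2 kb after it, 18 of 33 genes (54.5%) had an IDR summit, against 41.8% of all protein-coding genes. For comparison within the translation machinery, 68 of 88 cytoplasmic ribosomal protein genes (77.3%) and 38 of 73 mitochondrial ones (52.1%) had an IDR summit at an own TSS. None of these differences was tested.

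The 13 genes were mostly those without the suffix. Of the 18 genes without -m, 10 (55.6%) had an IDR summit at an own TSS (500 bp or less away), and of the 15 genes with -m, 3 (20.0%) had one. Of all protein-coding genes 23.5% had one, a share near that of the genes with -m. In the wider window the counts were 13 of 18 (72.2%) and 5 of 15 (33.3%), beside 41.8% of all protein-coding genes. There are 12 amino acids with a gene of each kind. Arginine and serine had an IDR summit at both genes, and alanine, asparagine, isoleucine, methionine and valine had one at the gene without -m alone. Cysteine had one at CysRS-m alone, and aspartate, leucine, tryptophan and tyrosine had none at either gene. The difference between genes with and without -m was not tested.

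**Figure D1:**
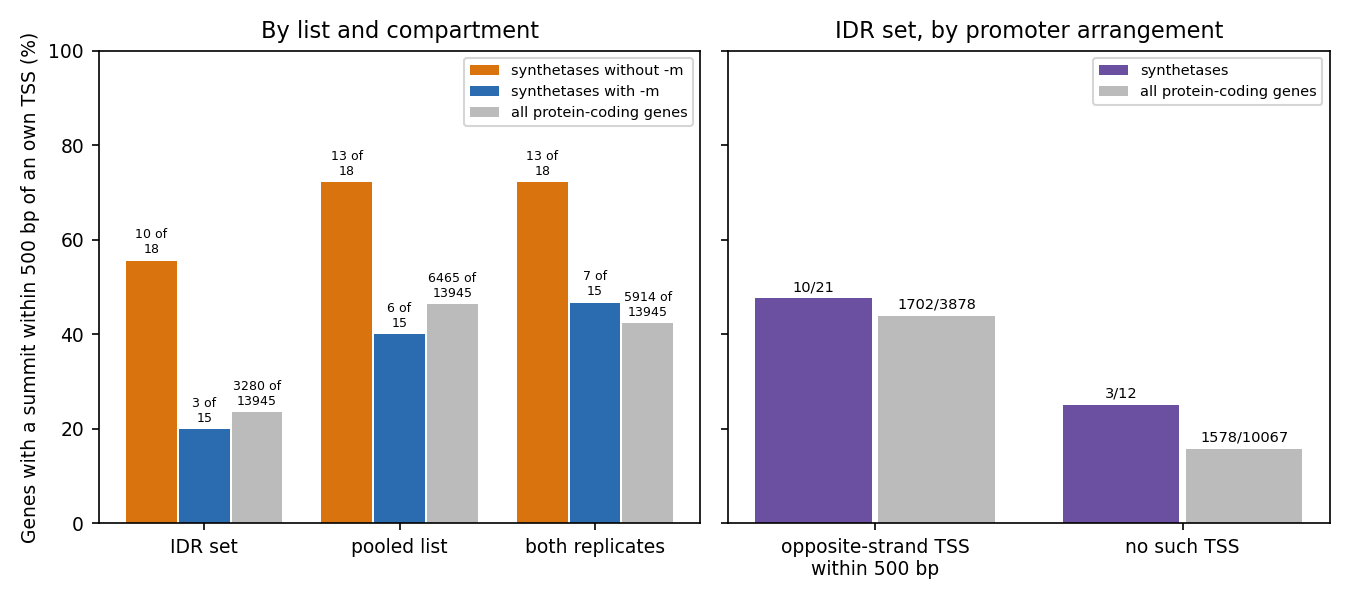
Share of genes (%) whose own TSS has a summit at most 500 bp away, with counts above each bar. The left panel shows synthetase genes without -m, synthetase genes with -m and all protein-coding genes in 3 peak lists (10 of 18, 3 of 15 and 3280 of 13945 genes in the IDR set). The right panel splits synthetase genes and all protein-coding genes by whether another gene starts on the opposite strand within 500 bp (10 of 21 and 1702 of 3878 where one does).

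By enzyme class the counts lay closer together. Of the class I genes, 6 of 18 (33.3%) had an own-TSS IDR summit, and of the class II genes 6 of 14 (42.9%) did. Among those without -m the counts were 4 of 9 and 5 of 8. Of all protein-coding genes 23.5% had such a summit. GluProRS joins a class I and a class II enzyme and had one as well. In human cells, 8 synthetase proteins are known to assemble with scaffold proteins into a multi-tRNA synthetase complex. Of the fly genes for these enzymes, IleRS, GluProRS, MetRS and ArgRS had an own-TSS IDR summit, whereas GlnRS, LeuRS, LysRS and AspRS had none, a count of 4 of 8. Among the other 10 genes without -m, 6 had one.

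The strongest promoter peak belonged to IleRS, which charges isoleucine tRNAs (FBgn0027086, arm 3L, 22288665 to 22292810, plus strand). Its peak at 22288254 to 22288708 had a signal value of 1398 in the pooled list, and its summit lay 169 bp upstream of the IleRS start. The opposite gene is Hem, a subunit of the actin-regulating WAVE complex. The signal value was 841 in replicate 1 and 555 in replicate 2. Scales differ between lists, so the ranks are the comparable values, and they were 409 in replicate 1 and 506 in replicate 2 among 30000 peaks each. Both replicates ranked it above every other synthetase promoter peak.

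SerRS, the seryl enzyme (FBgn0031497, 2L, 3035493 to 3037403, minus strand), had a peak at 3037217 to 3037571, with signal values of 624 (rank 708) in replicate 1, 353 (rank 1160) in replicate 2 and 977 in the pooled list. It is the only gene of the 13 whose pooled summit lay downstream of its start, at 17 bp. This summit was inside the SerRS 5′ UTR and an intron of CG17260. CG17260 starts on the other strand, 8 bp from a SerRS start. GluProRS (FBgn0005674, 3R, 23952136 to 23958391, minus strand) had a peak at 23958319 to 23958708. Its signal values were 496 (rank 1031) in replicate 1, 375 (rank 1046) in replicate 2 and 875 in the pooled list. The summit stood at -132 bp from the GluProRS start (negative is upstream) and 128 bp from that of AP-1sigma, a clathrin adaptor gene on the other strand, so the peak cannot be given to either gene alone. ThrRS, the threonyl enzyme (FBgn0027081, 2L, 12103751 to 12107170, plus strand), had a peak at 12103344 to 12103741, 221 bp upstream of its start. Its signal values were 468 (rank 1130) in replicate 1, 320.0 (rank 1319) in replicate 2 and 776 in the pooled list. These 3 peaks and that of IleRS ranked between 409 and 1319 in the replicate lists.

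The next 4 genes ranked between 2499 and 3820 in the replicate lists. CysRS-m, the mitochondrial cysteinyl enzyme (FBgn0033900, 2R, 14159096 to 14161262, minus strand), had a peak at 14161205 to 14161481. Its signal values were 263 (rank 2499) in replicate 1, 198 (rank 2560) in replicate 2 and 454 in the pooled list. The summit stood at -104 bp from the CysRS-m start and 64 bp from that of O-fut1, the O-fucosyltransferase of Notch. SerRS-m, the mitochondrial seryl enzyme (FBgn0021750, 3R, 15340667 to 15343218, plus strand), had a peak at 15340107 to 15340338, with signal values of 198 (rank 3567) in replicate 1, 183 (rank 2813) in replicate 2 and 394 in the pooled list. Its summit, 456 bp upstream, was the farthest of the 13 from its own start, yet no other protein-coding gene started closer.

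AsnRS, the asparaginyl enzyme (FBgn0086443, 2L, 19129469 to 19131954, minus strand), had a peak at 19131934 to 19132186, 94 bp upstream of its start. Its signal values were 204 (rank 3442) in replicate 1, 169.6 (rank 3078) in replicate 2 and 383 in the pooled list. For ValRS, the valyl enzyme (FBgn0027079, 2R, 13198850 to 13202709, plus strand), the peak lay at 13198328 to 13198583, with signal values of 187 (rank 3820) in replicate 1, 157 (rank 3380) in replicate 2 and 326 in the pooled list. The ValRS summit stood at -399 bp from its own start and 114 bp from that of Kdm4B, a histone demethylase gene.

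The 5 weakest of the 13 peaks ranked between 4231 and 23817 in the replicate lists. MetRS, the methionyl enzyme (FBgn0034401, 2R, peak 18850599 to 18850862), had a pooled signal value of 282 and ranks of 4231 and 4881 in replicates 1 and 2. AlaRS, the alanyl enzyme (FBgn0027094, 2L, peak 8381794 to 8381964), had signal values of 155 (rank 4673) in replicate 1, 89.3 (rank 6208) in replicate 2 and 242 in the pooled list, with the summit in the 3′ UTR of CG13392. GlyRS, the glycyl enzyme (FBgn0027088, 3L, peak 15094722 to 15095097), had 109.6 (rank 6508) in replicate 1, 60.1 (rank 9178) in replicate 2 and 189 in the pooled list. The start nearest to the GlyRS summit, at 186 bp, was that of the centrosomal gene Plp. ArgRS, the arginyl enzyme (FBgn0027093, X, peak 15844218 to 15844330), had 91.1 (rank 7789) in replicate 1, 61.1 (rank 9032) in replicate 2 and 163 in the pooled list. ArgRS-m, its mitochondrial counterpart (FBgn0037526, 3R, peak 7886870 to 7887023), had 101.4 (rank 7026) in replicate 1, 21.1 (rank 23817) in replicate 2 and 177 in the pooled list. The replicate 2 summit at ArgRS-m lay 234 bp from the pooled one, whereas in the other 12 genes both replicate summits were within 50 bp of it. It lay nearer to a second, weaker pooled peak at ArgRS-m (7886932 to 7887307, summit 7887120, rank 20176). This replicate 2 peak (7886976 to 7887325) has a set width of 350 bp, shared by 82.4% of its list. Its summit is thus only the middle of the peak, which overlaps both pooled peaks. The replicate peaks of MetRS, GlyRS and ArgRS also have set widths (370 bp in replicate 1). So do the replicate 1 peak of ArgRS-m and the replicate 2 peak of AlaRS. The summit positions of all these replicate peaks are therefore middles as well.

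**Figure D2:**
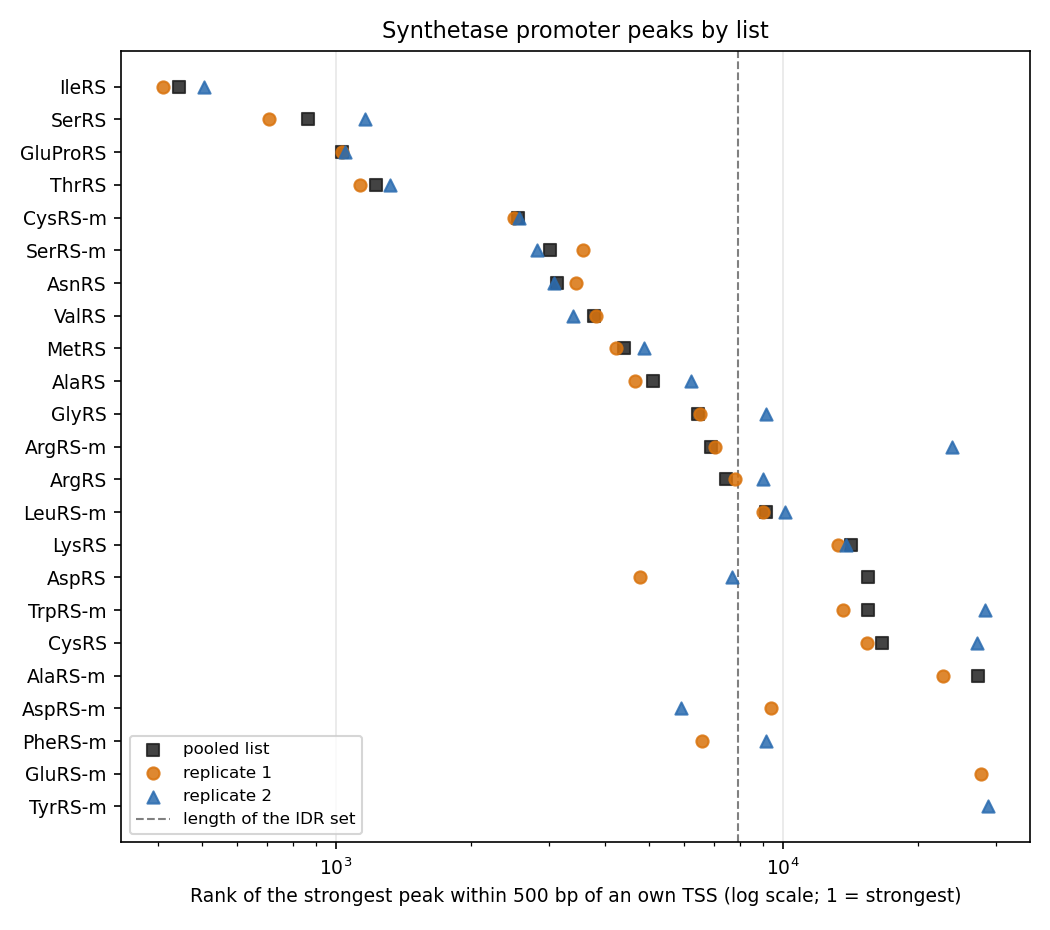
Rank of the strongest peak at an own TSS (x axis, log scale, 1 is the strongest of 30000) in the pooled list and in each replicate, for the 23 synthetase genes with such a peak in any list. The dashed line marks rank 7927, the length of the IDR set. IleRS stands first, ArgRS-m has its replicate 2 point far to the right at 23817 (a summit 234 bp from the pooled one), and AspRS-m and PheRS-m have points of both replicates but none of the pooled list. The AspRS points are of different peaks: the pooled one is near its first start and those of the replicates are near an internal start. The pooled summit was nearer to the start of Lfg, and the replicate summits were nearer to a start of Nmda1.

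Ranks of the 13 peaks differed between replicates by a median ratio of 1.17 (range 1.01 to 3.39). The highest ratio was that of ArgRS-m, where the replicate 2 summit lay apart, and the next was 1.64 at SerRS. The median was 1.2 over 2619 of the 2639 IDR peaks within 500 bp of a protein-coding TSS, those with a peak in both replicates. Of the 13, 10 (76.9%) were within the strongest 7927 of both replicates, beside 86.2% of the 2639. The exceptions were GlyRS, ArgRS-m and ArgRS. In strength the synthetase promoter peaks were ordinary: the median signal value was 383 (range 163 to 1398), against 365 over all 3280 genes with an own-TSS IDR summit (151 to 8178). These values are a description of 2 replicates and were not tested.

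**Figure D3:**
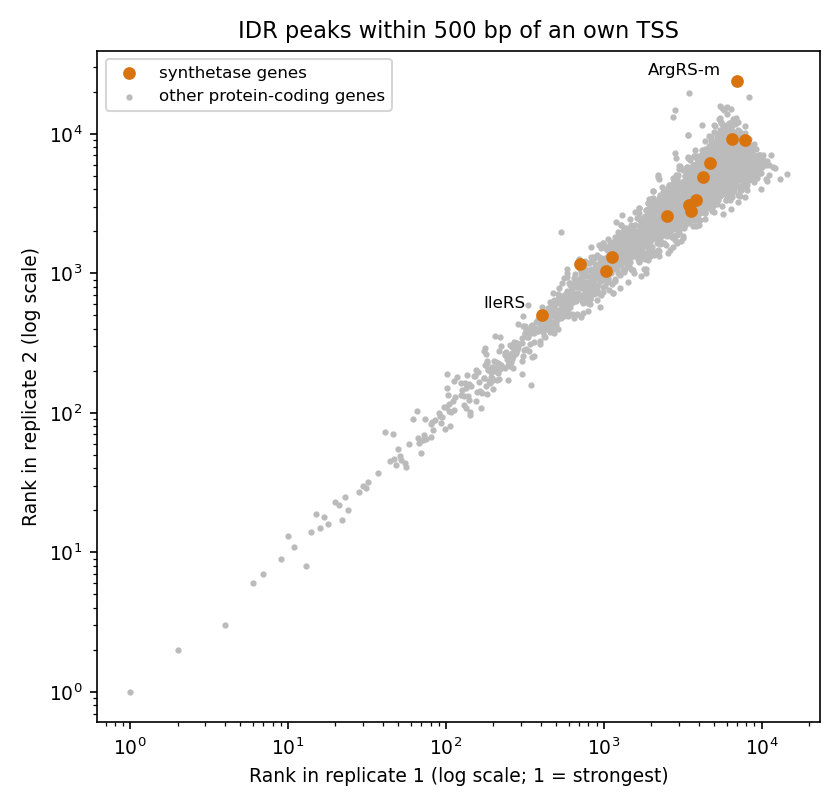
Rank in replicate 1 (x axis) against rank in replicate 2 (y axis), both on log scales, of IDR peaks within 500 bp of an own TSS. Orange points are the 13 synthetase genes and grey points the peaks of other protein-coding genes. IleRS, at 409 and 506, leads the synthetase points, and ArgRS-m, at 7026 and 23817, lies farthest from the diagonal among the synthetase points.

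Summits lay upstream of the start in 12 of the 13 genes (92.3%), beside 86.2% of all genes with an own-TSS IDR summit, and the median position was -132 bp (negative is upstream), beside -137 bp. Within 250 bp of the start were 11 of 13 (84.6%), beside 76.4%. Narrowing the distance to 100 bp left 3 synthetase genes, SerRS, AsnRS and AlaRS, whereas widening it to 1000 bp added LeuRS-m alone. LeuRS-m, the mitochondrial leucyl enzyme, had its IDR summit at -829 bp, the first outside the 500 bp limit. That peak (3L, 4824726 to 4825183) was strong, with a signal value of 1577 and ranks of 316 and 345 in replicates 1 and 2, but it lay in an intron of Dhc64C, the cytoplasmic dynein heavy chain gene, 663 bp from a Dhc64C start.

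**Figure D4:**
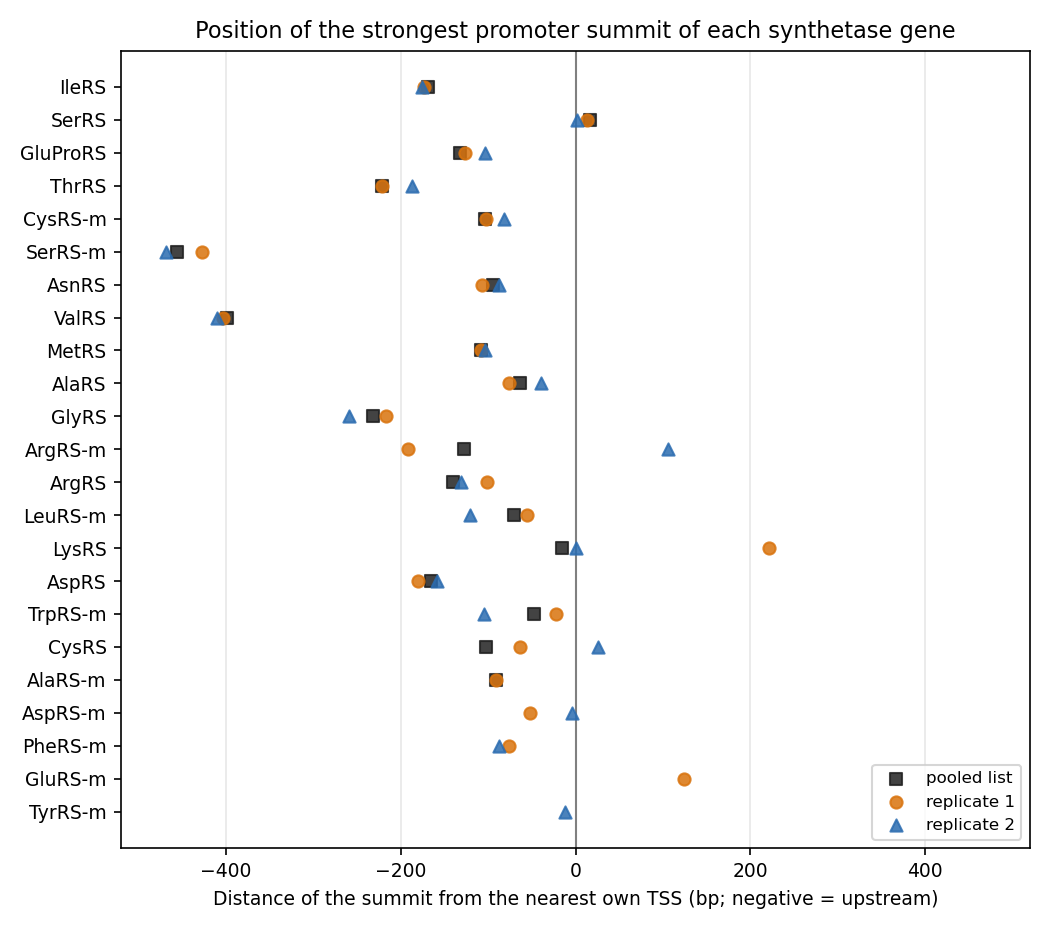
Distance in bp of the strongest summit within 500 bp from the nearest own TSS (x axis, negative is upstream) in the pooled list and in each replicate, for the 23 synthetase genes with such a peak in any list. Most points lie upstream, with SerRS-m (-456 bp) and ValRS (-399 bp) farthest to the left and the SerRS summit at 17 bp downstream in the pooled list. For AspRS the pooled point is measured from its first start and the replicate points from an internal start. Starts of Lfg (pooled) and Nmda1 (replicates) were nearer to these summits.

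Synthetase genes often have a start of another gene close by on the opposite strand, counted here whether upstream or downstream. An opposite-strand protein-coding gene started within 500 bp of an own TSS in 21 of 33 (63.6%), against 27.8% of all protein-coding genes. Of the 13 genes with an own-TSS IDR summit, 10 (76.9%) had such a neighbour, beside 51.9% of the 3280 protein-coding genes with such a summit. The exceptions were SerRS-m, ValRS and AlaRS. For ValRS, the start of Kdm4B lay just beyond the 500 bp limit. The gap between both starts was 8 bp at SerRS, 168 bp at CysRS-m, 245 bp at MetRS (CG15084), 260 bp at GluProRS, 312 bp at ArgRS-m (CG17816), 331 bp at ArgRS (CG8578) and 369 bp at AsnRS (DCTN6-p27). It was 418 bp at GlyRS (Plp), 466 bp at ThrRS (Patsas) and 470 bp at IleRS (Hem).

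Shares are therefore given beside those of genes with the same arrangement. Of the 21 synthetase genes with an opposite-strand neighbour 10 had an own-TSS IDR summit (47.6%), against 43.9% of the 3878 protein-coding genes so arranged. Of the 12 without one 3 had a summit, against 15.7% of 10067 genes. Genes with -m had such a neighbour in 7 of 15 cases and genes without it in 14 of 18, and among these arranged genes 2 of 7 with -m and 8 of 14 without -m had an own-TSS IDR summit. The part of the arrangement in the difference between both kinds was not tested.

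Most IDR summits that fell in a synthetase window away from its start were at the promoter of a neighbour. The windows held 24 IDR summits, 13 within 500 bp of an own TSS and 11 farther. Of the 13, the own start was the nearest protein-coding start for 9, and another gene's was nearer for GluProRS, CysRS-m, ValRS and GlyRS. Of the 11 farther summits, 10 had another gene's start nearest, 8 of them within 250 bp of it. The strongest was a peak of signal value 4775 in the AlaRS window (2L, 8376666 to 8377089, ranks 24 and 20 in replicates 1 and 2), 83 bp from the start of CG13390. The CysRS-m window held a peak of 2332 (2R, 14157418 to 14157838, ranks 132 and 163), 123 bp from the start of CG13018, and the GlyRS window one of 953 in an intron of Ctps, the CTP synthase gene. Each of these 3 outranked the promoter peak of its own synthetase gene. The other farther summits with an own-TSS peak beside them lay 8 bp from Rcd4 (AlaRS window, signal value 282), 180 bp from Nagk (SerRS-m window, 204) and 134 bp from brat (AsnRS window, 162).

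GlnRS, AsnRS-m, AspRS, HisRS and LeuRS-m were counted in the wider window through such summits alone. The summit in the GlnRS window (signal value 464) lay 89 bp from the start of CG11858, that in the AsnRS-m window (598) 136 bp from NiPp1, a phosphatase inhibitor gene, and that in the AspRS window (256) in an AspRS intron, 77 bp from the start of Nmda1. HisRS, the histidyl enzyme, was the exception: its IDR summit (X, 18517465 to 18517735, signal value 275) lay 2178 bp downstream of its start in a coding exon. It ranked 4566 and 4531 in replicates 1 and 2. A transcript of Bx, a LIM-only factor, is annotated from the same start, so the summit lies in a Bx intron as well.

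With weaker peaks counted as well, more genes had one. The whole pooled list, 30000 peaks, placed a summit at an own TSS in 19 of 33 synthetase genes (57.6%), against 46.4% of all protein-coding genes. Both replicate lists had such a summit in 20 of 33 (60.6%), against 42.4%. For genes without -m the count was 13 of 18 in either measure, and for genes with -m it was 6 of 15 in the pooled list and 7 of 15 in both replicates. The genes with a pooled summit but none in the IDR set were LeuRS-m (rank 9149, a summit 70 bp upstream of its own start), LysRS (14174), AspRS (15472), TrpRS-m (15518), CysRS (16617) and AlaRS-m (27288). Another gene's start was nearer to the AspRS summit (Lfg, 6 bp) and to the AlaRS-m summit (Fitm, 56 bp). Replicate 2 had no peak near the AlaRS-m start, and ranked those of TrpRS-m and CysRS at 28298 and 27097, against 13623 and 15427 in replicate 1. Most such weak peaks have 1 set width (376 bp for 73.2% of the pooled list), and the summit given is then the middle of the peak. The GlyRS promoter peak of the IDR set has that width too, so the position of its summit, and with it the GlyRS sequence shown and its TAATTA match, is only the middle of the peak.

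No peak of any list lay within 500 bp of the start of 10 synthetase genes: AsnRS-m, GlnRS, HisRS, IleRS-m, LeuRS, MetRS-m, ProRS-m, TrpRS, TyrRS and ValRS-m. For 5 of them, IleRS-m, LeuRS, MetRS-m, ProRS-m and TrpRS, no list had a peak even in the wider window. Neither count was made over all protein-coding genes. In the pooled list 46.4% of those had an own-TSS summit, beside 57.6% of synthetase genes. GluRS-m had a promoter peak in replicate 1 alone (rank 27735) and TyrRS-m in replicate 2 alone (rank 28807), both near the end of their lists. At AspRS-m and PheRS-m each replicate placed a peak and the pooled list did not. They are 2 of the 20 synthetase genes with a promoter peak in both replicates, beside 197 of 5914 protein-coding genes (3.33%). The AspRS-m peak lay on 2L at 16826841 to 16827210 in replicate 1 (rank 9375) and at 16826899 to 16827248 in replicate 2 (rank 5911). The PheRS-m peak lay on 2R at 13968047 to 13968416 in replicate 1 (rank 6601) and at 13968045 to 13968394 in replicate 2 (rank 9138).

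Motif matches were counted on either strand, up to 50 bp from the 13 own-TSS summits, and 3 of the 10 motifs were found. The homeodomain core TAATTG was in 5 of 13 windows (38.5%: AlaRS, AsnRS, CysRS-m, GluProRS and MetRS), beside 10.2% of the 2639 IDR summits within 500 bp of a protein-coding TSS. The core TAATTA was in 1, that of GlyRS (7.69%), beside 11.1%. The TATA motif TATAAA was in 5 (38.5%: AlaRS, AsnRS, CysRS-m, SerRS and ValRS), beside 24.9%. The windows of the synthetase genes had a median GC content of 25.7%, beside 30.7%. The other motifs had no match: the DNA replication-related element TATCGATA and its core ATCGAT, which it contains, the Motif 1 core GGTCACAC, the E-boxes CACGTG and CAGCTG, the GAGA motif GAGAG and the ATF4 element TGATGNAA. Those were also rare in the 2639 windows, between 0.909% and 8.11%.

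In the promoters themselves, 250 bases before to 50 after the gene start, the E-box CAGCTG was in 16 of 33 synthetase promoters (48.5%), beside 17.7% of all protein-coding promoters, and in 6 of the 13 with an own-TSS IDR summit (46.2%), beside 22.3% of all such genes. TAATTG was in 10 of 33 (30.3%), beside 25.2%, and in 7 of the 13, beside 23.8% of the 3280 genes with an own-TSS IDR summit. TATCGATA was in 5 of 33 (15.2%), beside 9.36%, ATCGAT in 9 (27.3%), beside 23.3%, GGTCACAC in 4 (12.1%), beside 7.7%, and CACGTG in 2 (6.06%), beside 4.2%. TATAAA was in 18 (54.5%), beside 45.8%. Shares below those of all genes were found for GAGAG, in 6 (18.2%), beside 29.7%, and for TAATTA, in 5 (15.2%), beside 20.4%. The ATF4 element was in 1 (3.03%), the CysRS promoter, beside 4.07%. Among the 13 promoters with an own-TSS IDR summit, TAATTA was in 1 (7.69%), beside 22.7%, and GGTCACAC in 0, beside 11.6%. In the same 13, GAGAG was in 4 (30.8%), beside 29.8%, and ATCGAT in 4 (30.8%), beside 29.7%. A match is only a run of letters, no match says only that these letters are not in the window, and none of these shares was tested.

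Other genes of the pathway were counted in the same way. Of 19 genes of tRNA charging and of the delivery and sensing of charged tRNA, 8 had an own-TSS IDR summit (23.5% of all protein-coding genes did), 11 had one in the wider window (41.8% of all) and 14 had an own-TSS summit in the pooled list (46.4% of all). Of the subunits of the cytosolic phenylalanyl enzyme, which the naming rule leaves out, alpha-PheRS had a summit (signal value 203, 99 bp from the start of CG2129) and beta-PheRS had none in the IDR or pooled list. Replicate 1 alone had a beta-PheRS peak, at rank 4854. The scaffold gene AIMP1 had no promoter peak in any list, and AIMP2 and AIMP3 had weak pooled peaks, at ranks 17250 and 15733. Among the genes of the mitochondrial amidotransferase, GatA (473) had an IDR summit 25 bp from the start of P5cr, GatC (199) had one equally far from its own start and that of PolG2 (86 bp), and GatB had none. Slimp, a seryl synthetase-like protein of insect mitochondria, had one of 229.7.

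Among the elongation factors, which carry charged tRNA to the ribosome or recycle the carrier, eEF1gamma had the strongest own-TSS peak of the 19 genes, with a signal value of 1060, 40 bp upstream of its start, and ranks of 943 and 574 in replicates 1 and 2. The carrier gene eEF1alpha1 had 387 and its mitochondrial counterpart mEFTu1 had 235. Gcn2, the kinase that senses uncharged tRNA, had an IDR summit of 313, nearer to the start of Ugt35D1. No own-TSS IDR summit was found at crc, the fly ATF4, or at eEF1alpha2, eEF1beta, eEF1delta, mEFTu2 or mEFTs. The pooled list had weaker own-TSS peaks at eEF1alpha2 (rank 8003), eEF1beta (9575), crc (9900) and mEFTs (10934). In the wider window crc, eEF1alpha2 and eEF1delta had an IDR summit.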

How the data were processed

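Peaks were taken as the authors deposited them, in narrowPeak lists on assembly dm6 for each replicate, for the pooled replicates and for the IDR set. Per the deposited text files, each list was made with 1 control file, the same in every case. Those sources name no peak caller, aligner or IDR threshold. The signal value is a score that the authors' caller gave, on a scale of its own in each list, so ranks were compared. The other value used from the deposited lists is the summit position in bp from the peak start. Gene models were those of Ensembl release 115, and sequences were read from RefSeq genome release 6, which is the dm6 assembly. An own TSS is the start of any annotated transcript of the gene. Summits were counted up to 500 bp from it, and from 2 kb before the gene to 2 kb after it.

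Members, gene lists and motifs were chosen with earlier results of these data known. By rule every synthetase gene is named, the 8 strongest and 4 weakest IDR promoter peaks in full and the others more briefly. Sequences shown are those of the strongest promoter summits, leaving out 1 chromosome arm and windows with over 30 bases of UTR (SerRS, AlaRS). Opposite-strand starts and peaks missing from the pooled list were examined after the data were seen. The age was read from the source name. Alternatives changed the peak list, the distances, the definition of a peak's position and the gene list, and left out each replicate. Counting was tested on simulated summits. Python 3.11.15, numpy 2.4.6, pandas 2.3.3 and matplotlib 3.10.9 were used.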

Additional observations from a re-analysis of the deposited data

How the results depend on the processing

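The count of synthetase genes with an own-TSS IDR summit (13) was 8 with the 3963 strongest IDR peaks, 2 with the 1000 strongest and 3 within 100 bp, where the share of all protein-coding genes was 13.6%, 4.2% and 7.16%. With the whole pooled list that share was 46.4%. The wider-window count (18) was 6 with the 1000 strongest peaks, 3 with no flank and 30 with 10 kb, where all genes gave 9.54%, 15.6% and 70.5%, and 27.6% with the 3963 strongest. Within 100 bp, 9 of 33 genes (27.3%) had a summit in both replicate lists, beside 15.7% of all genes, and 11 (33.3%) in the pooled list, beside 22.5%, the last chosen after seeing the data. Leaving out replicate 1 gave 12 genes (24.0% of all) at an own TSS and 17 (42.3%) in the wider window. Leaving out replicate 2 gave 15 (23.7%) and 19 (42.1%). In the whole replicate lists the own-TSS counts were 21 (48.4% of all genes) without replicate 1 and 22 (48.0%) without replicate 2. Without replicate 1 the own-TSS genes were 3 with -m and 9 without it, and without replicate 2 they were 4 and 11. No paired analysis was possible because both replicates belong to 1 group. With 33 genes and 2 replicates, each share moves by several percentage points with 1 gene.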

Other observations

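At 3 places in synthetase windows both replicates had a peak among their strongest 10000 and no peak of the pooled list overlapped it. Besides the starts of AspRS-m and PheRS-m, this was a peak 180 bp (replicate 1) and 159 bp (replicate 2) upstream of an internal start of AspRS. Its ranks were 4787 and 7669. A start of Nmda1 was nearer to both summits, at 126 bp (replicate 1) and 105 bp (replicate 2). The nearest pooled peaks were 6733 bp away at AspRS-m, 1434 bp at PheRS-m and 1099 bp at AspRS. Of 27 replicate 1 peaks so shared in the windows of synthetase genes, these 3 (11.1%) lacked a pooled one. Over the whole genome 77 of 8504 shared peaks (0.905%) did, and 0 of 905 did among the strongest 1000 of each replicate. The share among synthetase genes was noticed in these data, rests on 3 peaks and was not tested.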
